A study of Mus musculus with 4 samples.

Results

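Receptors for the constant (Fc) part of antibodies were followed at the transcript level across the cell types of mouse liver CD45+ preparations. The 6 genes were taken by symbol from the 27998 genes listed in each library: Fcer1g, the shared signalling chain; Fcgr1, Fcgr3 and Fcgr4, the activating IgG receptors; Fcgr2b, the inhibitory IgG receptor; and Fcgrt, the neonatal Fc receptor. All 6 were found in all 4 libraries. The libraries came from wild-type C57BL/6 mice that either ran on a motorized treadmill at 12.5 m/min for 60 min a day, 5 days a week, for 4 weeks (exercise, 2 libraries) or spent the same sessions on a treadmill that did not move (sedentary, 2 libraries). Serum alanine aminotransferase, a blood marker of liver damage, was listed at 26 U/L for the first and 59 U/L for the other exercise library, and at 33 U/L and 56 U/L for the sedentary ones. CD45, the leukocyte surface antigen encoded by Ptprc, was the marker of the selection, which the sample protocol describes as magnetic and the series text as a sort. The labels do not say whether the replicates came from separate mice, so p-values measure the spread between these samples, which may in part be technical.

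IgG that has bound its antigen is read by cells through Fc gamma receptors. The activating receptors pair with the FcR gamma chain, the product of Fcer1g, whose immunoreceptor tyrosine-based activation motif recruits the kinase Syk, whereas Fcgr2b carries an inhibitory motif of its own and needs no partner chain. The neonatal receptor works inside endosomes, where it holds IgG and albumin at acid pH and returns them to the surface, and in the liver both Kupffer cells, the resident macrophages, and sinusoidal endothelial cells are known to clear immune complexes.

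Cells were clustered without the Fc receptor genes and classes were named from marker genes. The 14560 cells kept of 15383 barcodes gave 16 named classes with 13576 cells, of which 13 had 20 cells or more in each library. Total counts were between 10050976 and 14849778 unique molecular identifiers (UMIs) per library, and 117 barcodes of kept cells occurred in more than 1 library. Values are UMIs of a gene per 1000000 UMIs of the class in a library (CPM). The sinusoidal endothelium is covered by an LSEC-like class of 831 cells, in which all 11 endothelial markers were detected and summed to between 20372 and 23150 CPM, against 897 to 964 CPM in Kupffer-like cells. Its Ptprc level was 29.1 ± 13.3 CPM (SD, n = 4), against a mean of 412 CPM (395 to 442) in the 5307 Kupffer-like cells, on 55 UMIs in all LSEC-like cells together, so the transcript of the selection marker was low in them.

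Of the 6 genes, 4 lie on chromosome 1 of GRCm38 within 275749 bp: Fcgr2b at chr1:170958617-170976547 on the minus strand, Fcgr4 at chr1:171018920-171029761 on the plus strand, Fcgr3 at chr1:171051174-171064935 on the minus strand and Fcer1g at chr1:171229572-171234365 on the minus strand. Fcgr1 lies at chr3:96282909-96293969 and Fcgrt at chr7:45092990-45103851, both on the minus strand. Each is annotated as protein-coding. Antisense genes overlap Fcgr2b (Gm38204) and Fcgrt (Gm45669) in the GENCODE annotation, and the use of strand in counting is unknown here. Gm38204 had 2 UMIs over all barcodes against 6735 for Fcgr2b.

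The start-proximal sequences of the 3 activating receptors are shown because these genes had the most similar levels across classes of any pairs among the 6 genes. Each is the stretch of 250 bases before a RefSeq transcript start on GRCm38.p6, written 5′ to 3′ on the gene's strand, at chr3:96293970-96294219 (minus) for Fcgr1, chr1:171059395-171059644 (minus) for Fcgr3 and chr1:171018676-171018925 (plus) for Fcgr4. Fcgr3 has 2 listed starts a few bases apart, of which the more downstream is shown, and 27 bases of its window and 6 of that of Fcgr4 lie in annotated exons. Capitals mark matches to GAGGAA, the core of sites bound by the myeloid factor PU.1, here read on the other strand as TTCCTC, and to TTCNNNGAA, a pattern bound by STAT factors.
Fcgr1: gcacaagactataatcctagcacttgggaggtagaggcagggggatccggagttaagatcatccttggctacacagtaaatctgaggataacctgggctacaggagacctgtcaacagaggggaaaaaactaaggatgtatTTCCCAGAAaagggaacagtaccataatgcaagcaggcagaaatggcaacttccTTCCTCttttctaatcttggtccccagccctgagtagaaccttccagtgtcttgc
Fcgr3: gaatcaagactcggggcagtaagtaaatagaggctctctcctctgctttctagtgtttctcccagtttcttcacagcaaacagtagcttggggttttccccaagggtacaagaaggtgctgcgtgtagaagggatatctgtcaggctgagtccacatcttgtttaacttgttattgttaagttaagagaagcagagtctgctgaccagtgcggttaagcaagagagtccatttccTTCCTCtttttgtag
Fcgr4: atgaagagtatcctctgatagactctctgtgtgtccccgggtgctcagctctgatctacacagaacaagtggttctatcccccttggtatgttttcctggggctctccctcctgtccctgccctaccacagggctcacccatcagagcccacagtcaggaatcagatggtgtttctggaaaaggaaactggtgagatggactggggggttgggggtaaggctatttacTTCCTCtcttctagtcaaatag
GAGGAA, searched on both strands, was found in the windows of these 3 genes and not in those of the other 3, at first bases 55, 15 and 22 before the start for Fcgr1, Fcgr3 and Fcgr4. It occurs in 23.3% of all 32851 windows of this length. TTCNNNGAA, which reads the same on both strands, was found in the window of Fcgr1 alone and occurs in 7.02% of all windows. Both patterns were chosen after these windows had been read, and a match describes letters and not binding. The Fcgr2b window lies inside the annotated gene, and 203 of its 250 bases are in annotated exons. The lack of a match there thus describes mostly exon sequence. The Fcgr3 window also lies inside its annotated gene, which reaches to chr1:171064935 on the upstream side. Its match is thus not upstream of the whole annotated gene, and the windows compared are not placed alike. In the Fcer1g and Fcgrt windows 16 and 29 bases lie in exons.

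Fcgr2b, the inhibitory receptor, was highest in the endothelial class. In LSEC-like cells it stood at 2585 and 2423 CPM in the exercise libraries and at 2557 and 2258 CPM in the sedentary ones, a mean of 2456 ± 150 (SD, n = 4). The next class was classical monocyte-like cells, at 183 and 198 CPM in the exercise and 219 and 291 CPM in the sedentary libraries. The libraries of the LSEC-like class did not overlap with any other class, and its level was between 7.75 and 14.1 times that of classical monocyte-like cells in the same library. LSEC-like cells held 72.8 ± 4.86% (SD, n = 4) of all Fcgr2b UMIs of a library.

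Kupffer-like cells, with 150 Fcgr2b UMIs in all, were at the other end of the order. Their levels were 7.55 and 9.31 CPM in the exercise and 8.41 and 10.4 CPM in the sedentary libraries, overlapping with those of Cxcr6-high T-like cells at between 4.36 and 10.6 CPM. The LSEC-like level was between 217 and 342 times the Kupffer-like level of the same library. Expressed the other way, the Kupffer-like level had a median of 0.357% of the LSEC-like level, and the 11 endothelial markers in Kupffer-like cells had a median of 0.516%, with a range from 0.331% to the 94.8% of Cdh5. The share of Fcgr2b UMIs in Kupffer-like cells that came from free RNA of endothelial cells was not tested. After each cell had been thinned to 1000 UMIs, a mean of 86.8% of LSEC-like cells (83.3% to 90.1% over 4 libraries) had a Fcgr2b UMI, against 1.15 ± 0.318% (SD, n = 4) of Kupffer-like and 0.920 ± 0.468% of Cxcr6-high T-like cells, a lineage that should lack the gene. Without thinning the shares were 95.6%, 2.74% and 1.83%, at median depths per library of 1682 to 2544, 2264 to 2900 and 2423 to 3004 UMIs.

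Between these ends lay cDC2-like cells, a class of conventional dendritic cells, with 146 ± 30.7 CPM (SD, n = 4), other macrophage-like cells with 139 ± 36.1 CPM and B-like cells with 67.0 ± 4.79 CPM. B-like cells, in which Fcgr2b is the known Fc gamma receptor, stood at 61.2 and 66.3 CPM with exercise and at 68.0 and 72.8 CPM without. All 4 values were above every library of both T-like classes, whose highest was 27.0 CPM.

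The activating receptors followed another order, in which the highest means were those of mononuclear phagocytes and LSEC-like means were at most 19.4 CPM. Fcgr1, the high-affinity IgG receptor, was highest in other macrophage-like cells, the Cx3cr1 and Ms4a7 class, with 219 and 288 CPM in the exercise and 260 and 351 CPM in the sedentary libraries. Kupffer-like cells followed with 167 and 194 CPM in the exercise and 160 and 187 CPM in the sedentary libraries, all below the lowest other macrophage-like library. Cycling Kupffer-like cells (139 ± 20.3 CPM, SD, n = 4) overlapped with Kupffer-like cells, and classical monocyte-like cells stood at 104 ± 37.1 CPM. In all other named classes the mean was at most 35.6 CPM, and in the 3 lymphoid classes of T-like and B-like cells at most 6.56 CPM.

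Fcgr3, a low-affinity activating receptor, had its highest mean in other macrophage-like cells as well, with 753 and 586 CPM in the exercise and 775 and 816 CPM in the sedentary libraries. This was 1.77 to 2.58 times the Kupffer-like level of the same library, which was 357 and 331 CPM in the exercise and 321 and 316 CPM in the sedentary libraries. Classical monocyte-like cells lay between these classes at 387 ± 29.5 CPM (SD, n = 4) and overlapped with Kupffer-like cells. Neutrophil-like cells had 531 ± 190 CPM on 113 UMIs, with between 7 and 69 cells a library. In natural killer cells Fcgr3 is the known trigger of antibody-dependent killing, yet the Gzmc-high and Klra4-high NK or ILC1-like classes had 42.4 ± 23.6 and 64.3 ± 55.6 CPM on 28 and 18 UMIs, and 1 Klra4-high library had none, which allows up to 45.8 CPM.

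Fcgr4, which binds IgG2a and IgG2b with intermediate affinity, did not separate the macrophage classes. It stood at 380 and 349 CPM in the exercise and 383 and 400 CPM in the sedentary Kupffer-like sums, and at 382 and 441 CPM and 515 and 482 CPM in other macrophage-like cells, whose libraries overlapped with the Kupffer-like ones. Patrolling monocyte-like cells had the highest mean, 517 ± 262 CPM (SD, n = 4), but on 83 UMIs and with libraries from 226 to 851 CPM. Classical monocyte-like cells were lower, at 118 ± 49.7 CPM, with all 4 libraries below every cycling Kupffer-like, Kupffer-like and patrolling monocyte-like library.

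**Figure D1:**
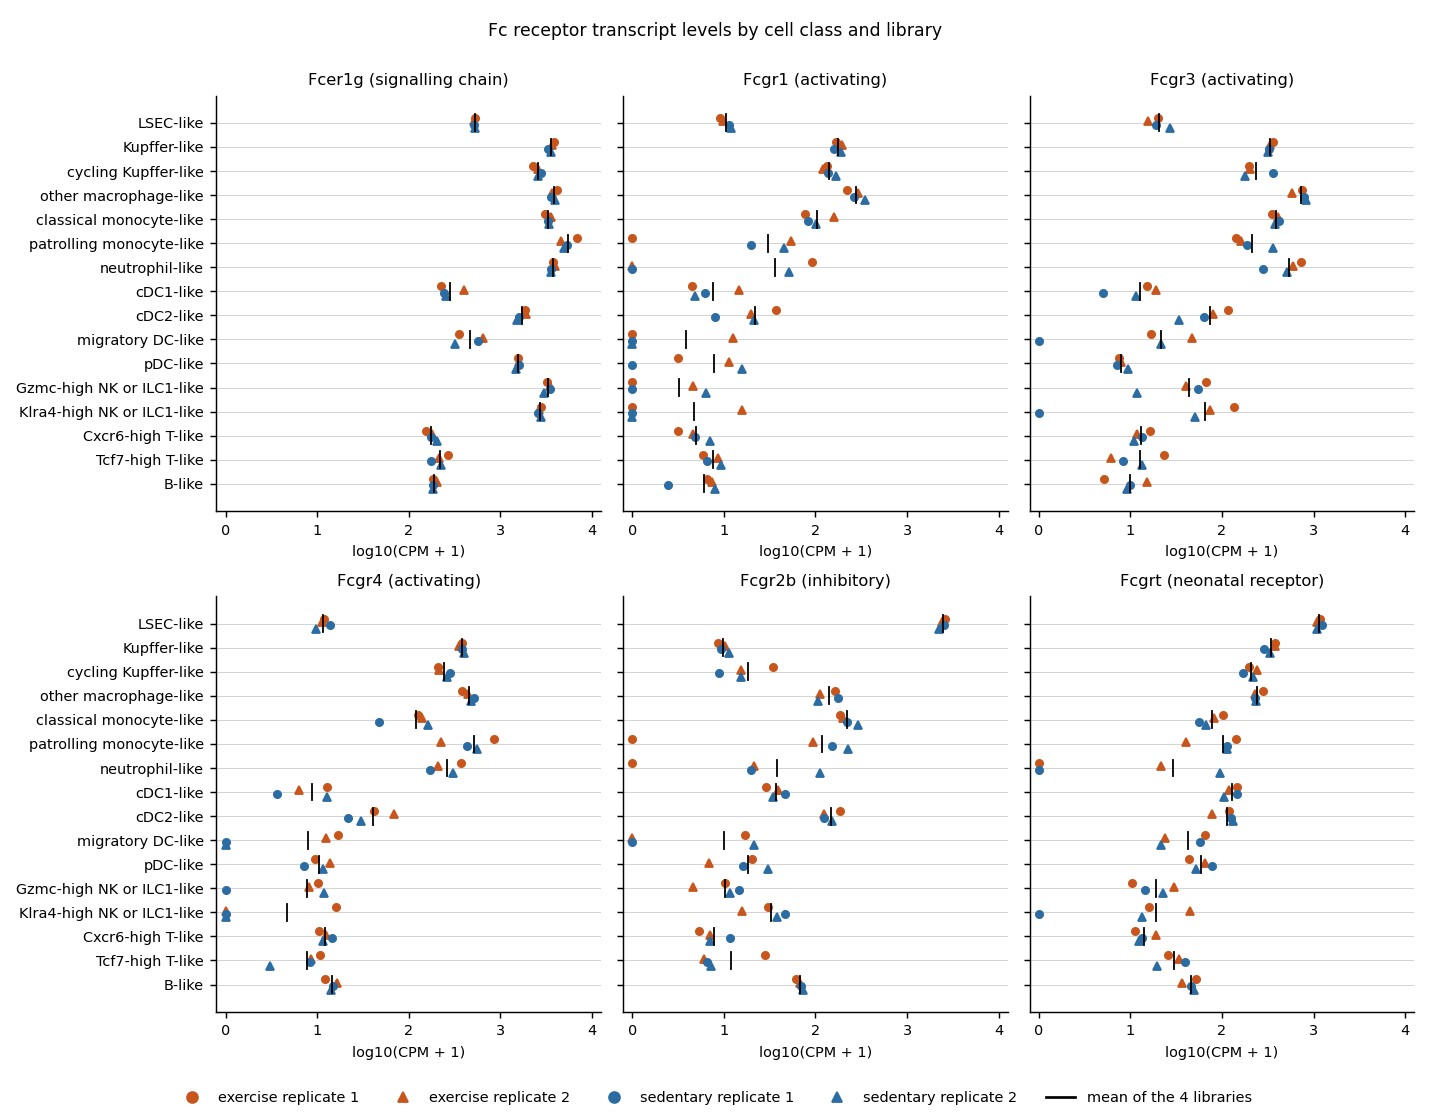
Levels of the 6 Fc receptor genes by class, on a log10(CPM + 1) axis. Each point is 1 library (colour for the group, shape for the replicate) and the black bar marks the mean of the 4 libraries; Fcgr2b and Fcgrt peak in LSEC-like cells (means 2456 and 1147 CPM), while Fcgr1, Fcgr3 and Fcgr4 have their highest means in macrophage or monocyte classes, with means of at most 19.4 CPM in LSEC-like cells.

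The make-up of Fc gamma receptor transcripts was opposite in the 2 scavenger populations of the sinusoid. Of the UMIs of Fcgr1, Fcgr2b, Fcgr3 and Fcgr4 as a sum, Fcgr2b made up 98.4 ± 0.277% (SD, n = 4) in LSEC-like cells and 0.996 ± 0.132% in Kupffer-like cells. The Kupffer-like remainder was 42.2 ± 2.06% Fcgr4, 37.0 ± 1.85% Fcgr3 and 19.8 ± 1.77% Fcgr1. Tags at the 3′ end were not scaled by transcript length, so these are shares of UMIs. Dendritic cells and monocytes were mixed, with Fcgr2b shares of 53.5 ± 9.73% in cDC2-like, 58.8 ± 13.9% in cDC1-like and 26.8 ± 4.04% in classical monocyte-like cells. In B-like cells the Fcgr2b share was 71.3 ± 4.33%. In cDC1-like cells Fcgr1, Fcgr3 and Fcgr4 had 23, 40 and 26 UMIs, at medians of 2.71%, 3.60% and 2.21% of the Kupffer-like level. The 9 Kupffer marker genes had medians of 1.57% to 3.59% there. In B-like cells these 3 receptor genes had medians of 3.31%, 2.66% and 3.48%, and the markers 2.28% to 4.49%. In cDC2-like cells they were higher, at 10.4%, 21.7% and 8.99%. The part of free RNA in these shares was not tested.

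**Figure D2:**
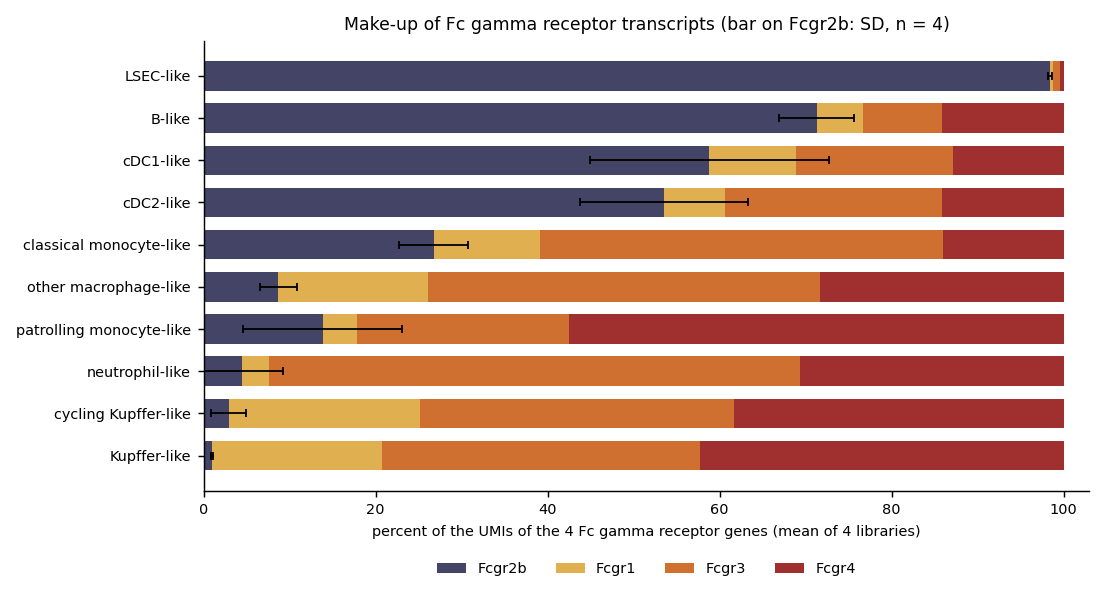
Percent of the UMIs of the 4 Fc gamma receptor genes that belongs to each gene, as the mean of 4 libraries in 10 classes; the black bar is the SD of the Fcgr2b share, cut off at 0 for neutrophil-like cells. Fcgr2b fills 98.4% of the LSEC-like bar and 0.996% of the Kupffer-like bar. UMIs from free RNA were not removed.

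Fcgr2b and Fcgr3 encode closely related outer domains, so reads could in principle be assigned to the wrong gene. In LSEC-like cells the Fcgr3 level was between 0.599% and 1.16% of the Fcgr2b level, and in Kupffer-like cells the Fcgr2b level was between 2.12% and 3.28% of the Fcgr3 level.

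Fcer1g, the signalling chain, was also high in classes with low levels of activating Fc gamma receptor transcripts. Kupffer-like cells had 3825 and 3679 CPM in the exercise and 3293 and 3570 CPM in the sedentary libraries, in the same range as other macrophage-like (3823 ± 242 CPM, SD, n = 4), neutrophil-like (3716 ± 188 CPM) and classical monocyte-like cells (3328 ± 189 CPM). Gzmc-high NK or ILC1-like cells stood among them, with 3215 and 3453 CPM in the exercise and 3478 and 3016 CPM in the sedentary libraries. In natural killer cells the chain is also known to serve natural cytotoxicity receptors such as Ncr1. That class had Fcgr3 at 42.4 CPM, at a median of 14.4% of the Kupffer-like level (3.39% to 18.3% over the libraries). The 9 Kupffer markers had medians of 2.07% to 3.75% there, below the Fcgr3 median. The Fcer1g to Fc gamma receptor proportions of the class differed from those of macrophages. The ratio of Fcer1g UMIs to the summed UMIs of Fcgr1, Fcgr3 and Fcgr4 was between 43.1 and 112 in Gzmc-high NK or ILC1-like cells, on 5 to 14 receptor UMIs a library. In Kupffer-like cells the ratio was between 3.81 and 4.23.

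Plasmacytoid dendritic (pDC-like) cells showed the same kind of excess. Their Fcer1g level was 1561 and 1592 CPM with exercise and 1589 and 1491 CPM without, between 4.01 and 6.99 times that of cDC1-like cells in the same library. All 4 pDC-like libraries lay above every cDC1-like and LSEC-like library and overlapped with cDC2-like cells at 1712 ± 187 CPM (SD, n = 4). Patrolling monocyte-like cells had the highest Fcer1g mean, 5460 ± 984 CPM, with all libraries above those of every other named class. LSEC-like cells had 522 ± 7.13 CPM, close to 1 value in all 4 libraries.

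Low levels of these genes in lymphocytes were set beside Kupffer markers, since free RNA of lysed cells can enter droplets. Relative to the Kupffer-like cells of the same library, the 9 Kupffer markers had medians between 2.45% and 3.46% in Cxcr6-high T-like cells. Fcgr1 and Fcgr3 had medians of 2.14% and 3.60% there and Fcgr4 ranged from 2.48% to 3.50%, on 21, 65 and 60 UMIs. The Fcgr1 median was thus below and the Fcgr3 median above those of all 9 markers, and the part of free RNA in these levels was not tested. Fcer1g was somewhat above the markers, at a median of 5.06% in Cxcr6-high T-like cells and 5.25% in B-like cells, whose markers ranged from 2.28% to 4.49%. In LSEC-like cells Fcer1g was at a median of 14.5%, with all libraries between 13.7% and 15.6%, above all 9 markers, whose medians ended at 4.99%. Fcgr1, Fcgr3 and Fcgr4 were at medians of 5.34%, 5.47% and 2.88% in LSEC-like cells, on 18, 36 and 20 UMIs.

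**Figure D3:**
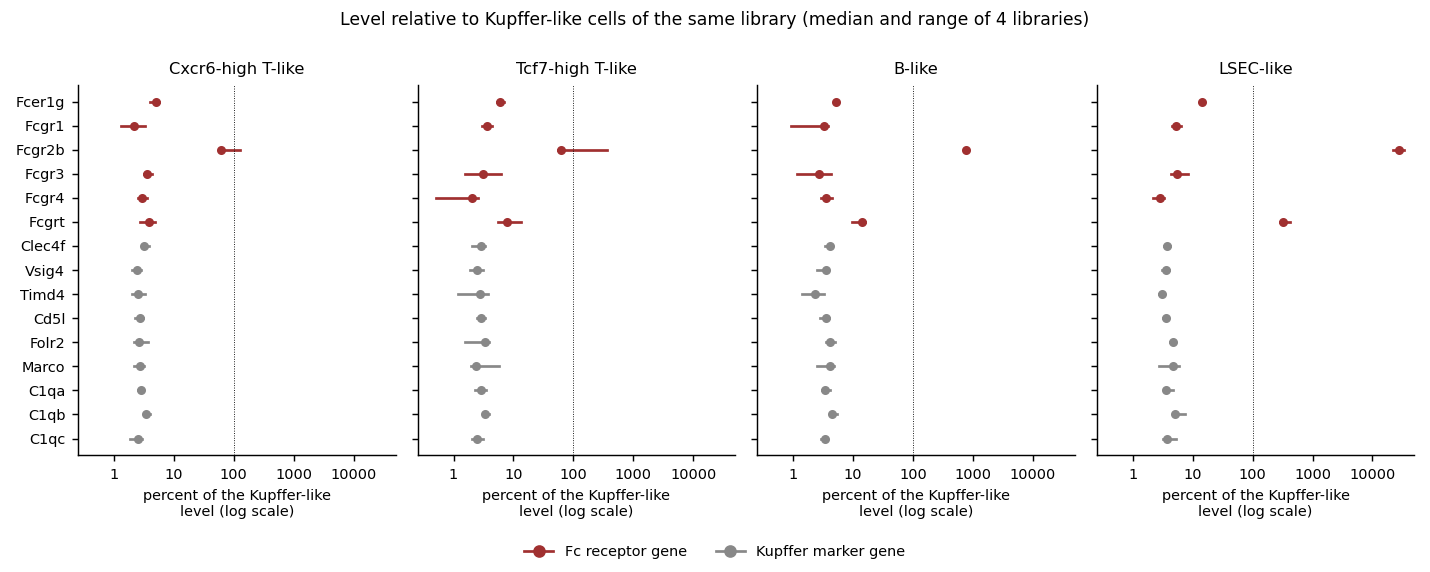
Level of each gene in 4 classes as a percent of its level in the Kupffer-like cells of the same library, on a log axis; points are medians and lines ranges over 4 libraries, and the dotted line marks an equal level. In Cxcr6-high T-like cells the grey Kupffer markers have medians from 2.45% to 3.46%, with Fcgr1 below them at 2.14% and Fcgr3 above them at 3.60%, while Fcgr2b and Fcgrt exceed the Kupffer-like level in LSEC-like cells.

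Fcgrt, the neonatal receptor, was shared by both sinusoidal populations. LSEC-like cells had 1179 and 1084 CPM in the exercise and 1227 and 1098 CPM in the sedentary libraries, and Kupffer-like cells had 373 and 376 CPM and 287 and 335 CPM. The LSEC-like level was between 2.88 and 4.28 times the Kupffer-like level of the same library, and neither class overlapped with its neighbours in the order. Because Kupffer-like cells were more numerous, they held 55.5 ± 6.07% (SD, n = 4) of all Fcgrt UMIs and LSEC-like cells 21.1 ± 2.48%. After thinning to 1000 UMIs, 63.3 ± 1.57% of LSEC-like cells and 26.8 ± 3.11% of Kupffer-like cells had a Fcgrt UMI, against 1.17 ± 0.315% of Cxcr6-high T-like cells. Without thinning these shares were 86.5%, 56.6% and 3.58%.

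Other macrophage-like cells had 243 ± 22.3 CPM of Fcgrt, and the dendritic classes cDC1-like and cDC2-like had 128 ± 20.8 and 113 ± 25.2 CPM. Classical monocyte-like cells were lower, at 75.9 ± 20.6 CPM (SD, n = 4), and the Kupffer-like level was between 3.64 and 5.24 times theirs. B-like cells, at 45.2 ± 6.83 CPM, had a median of 14.1% of the Kupffer-like level, above the 9 Kupffer markers in that class.

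Across the 13 classes with enough cells, the log2 levels of Fcgr1, Fcgr3 and Fcgr4 followed each other, with Pearson correlations of 0.97 (Fcgr1 and Fcgr3), 0.98 (Fcgr1 and Fcgr4) and 0.95 (Fcgr3 and Fcgr4). Fcgr2b had correlations between 0.03 and 0.15 with these genes, 0.08 with Fcer1g and 0.61 with Fcgrt. These are descriptions over classes that share libraries and differ in depth. Among the 8761 genes compared, the 3 most like Fcgr2b were Cd300lg (0.90), Csrp2 (0.90) and Flt1 (0.88), the last a vascular growth factor receptor, each highest in LSEC-like cells. Fcgr4 was most like Adgre1, the macrophage antigen F4/80 (0.98), Csf1r, the receptor for macrophage colony-stimulating factor (0.98), and Pilra (0.98). Fcgr1 and Fcgr3 shared Klra2 as their nearest gene (0.99 each), followed by Hacd4 and Fcgr4 for Fcgr1 and by Lilrb4a and Fcgr1 for Fcgr3. The nearest genes of Fcgrt were Id3 (0.96), Gatm (0.94) and Mt1 (0.93), and those of Fcer1g were Amdhd2 (0.95), Gm13139 (0.94) and Gm13251 (0.94).

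Kupffer-like cells were made of 3 clusters, which differed in depth. Cluster 1 (1892 cells) had median depths of 3729 to 4687 UMIs per library, cluster 3 (1858 cells) 2310 to 2828 and cluster 4 (1557 cells) 1380 to 1601, and median mitochondrial shares went the other way, being at most 6.20% in cluster 1 and reaching 12.5% in cluster 4. Fcgr3 stood at 421, 266 and 167 CPM in clusters 1, 3 and 4, with no overlap of libraries between clusters, and Fcgr1 at 209, 154 and 115 CPM. Fcer1g stood at 4092, 3303 and 2534 CPM. Fcgr4 stood at 424, 341 and 294 CPM. Fcgrt did not share this order, at 381, 291 and 323 CPM. The means of Fcgr2b ran the other way, at 6.95, 9.49 and 13.9 CPM. They rested on 6 to 27 UMIs a library across the clusters, and the Fcgr2b libraries of clusters 1 and 3 overlapped. As the clusters also differ in depth and mitochondrial share, their part in these levels was not tested.

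**Figure D4:**
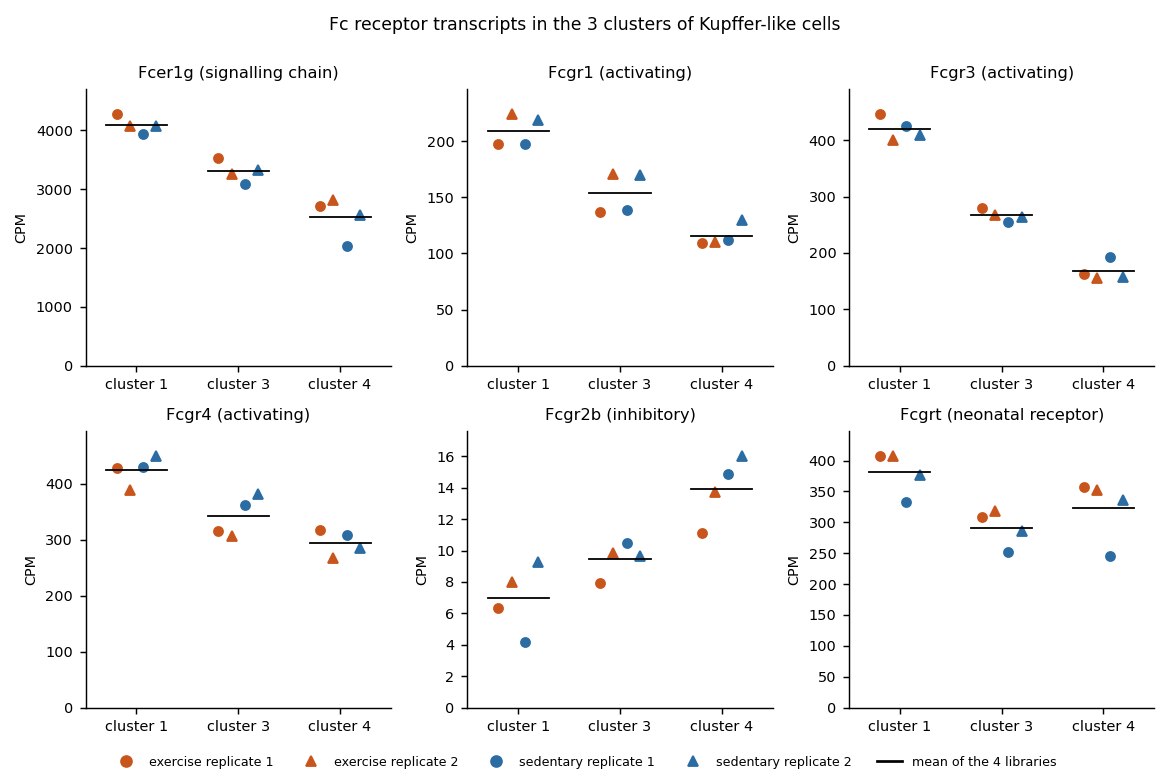
CPM of the 6 genes in the 3 clusters of Kupffer-like cells; each point is 1 library and the black bar the mean of the 4. Fcgr3 steps down from 421 to 266 to 167 CPM, and in each cluster both exercise libraries lie above both sedentary libraries for Fcgrt. The clusters share the same 4 libraries. Fcgrt did not pass the exercise test in the class as a whole, where 35.7% of the genes tested showed no overlap of the groups.

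Exercise and sedentary libraries were then compared within each class, a comparison the series title ties to trained immunity of Kupffer cells. None of the 6 genes passed the test in any class. Of 49 tests of a member in a class, 0 passed the edgeR quasi-likelihood test at an adjusted p of 0.05, and 3 had an unadjusted p under 0.05; the smallest adjusted p was 0.707. Over all genes tested in the 13 classes, 0.123% passed. In Kupffer-like cells 0 of 6 members passed, against 0.419% of the 9788 genes tested there (1 higher and 40 lower after exercise), and DESeq2 also called 0 of the 6. In counts simulated from these sums, 94% of genes changed by 2-fold and 100% of those changed by 4-fold were recovered in the Kupffer-like comparison. The simulation used the same assumed spread for every gene, not the spread of the data. It changed only genes well counted in both Kupffer-like and LSEC-like cells. Fcgr1, Fcgr2b, Fcgr3 and Fcgr4 were too low in 1 of these classes to be among them, so these rates do not describe them.

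Fcgrt came nearest in Kupffer-like cells. Its exercise libraries stood at 373 and 376 CPM and its sedentary libraries at 287 and 335 CPM, a log2 difference of 0.28 (SE 0.12, 95% interval 0.01 to 0.56), with an edgeR p of 0.0466 and an adjusted p of 0.825. The groups did not overlap in the class or in any of its 3 clusters. Mean CPM with exercise and without was 407 and 354 in cluster 1 and 314 and 269 in cluster 3. It was 355 and 291 in cluster 4. The clusters come from the same 4 libraries, so they are not repeats of each other. The share of all genes without overlap was not counted per cluster. Levels of other transcripts moved alongside: the summed Kupffer markers were 33021 and 32896 CPM in the exercise and 28015 and 30092 CPM in the sedentary libraries. The summed hepatocyte markers were 143 and 104 CPM against 1366 and 661 CPM, and erythroid markers 102 and 313 CPM against 2144 and 936 CPM. Their part in the Fcgrt values was not tested. Without sedentary replicate 1 the log2 difference of Fcgrt was 0.14 and without sedentary replicate 2 it was 0.44. With 2 libraries a group, an exact permutation test of a single value cannot give a p below 0.333.

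For the other members in Kupffer-like cells the intervals limit how large a difference could be. The log2 difference was 0.14 for Fcer1g (95% interval -0.10 to 0.39), 0.13 for Fcgr3 (-0.10 to 0.35), 0.07 for Fcgr1 (-0.25 to 0.39), -0.09 for Fcgr4 (-0.33 to 0.15) and -0.13 for Fcgr2b (-0.73 to 0.47). The groups did not overlap for Fcer1g, Fcgr3 and Fcgrt, which were higher, and for Fcgr4, which was lower after exercise. Such separation is common with 2 libraries a group and was seen for 35.7% of the genes tested in this class. Cluster 1, where Fcer1g and Fcgr3 are highest, made up 38.3% and 41.8% of Kupffer-like cells in the exercise and 29.4% and 31.1% of them in the sedentary libraries, and within cluster 1 the groups overlapped for both genes. Fcer1g was higher after exercise without overlap in cluster 4 (means of 2762 and 2305 CPM) and Fcgr3 in cluster 3 (274 and 259 CPM), and each overlapped in the remaining cluster. The part of the cluster shares in the class values was not tested. Fcgr4 was lower after exercise without overlap in clusters 1 and 3 and overlapped in cluster 4. Fcgr1 and Fcgr2b were lower without overlap in cluster 4, Fcgr2b on 7 to 11 UMIs a library, and overlapped in clusters 1 and 3.

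In LSEC-like cells 0 of the 3 members that could be tested passed, against 0.105% of all genes. The log2 difference of Fcgr2b was 0.04 (95% interval -0.21 to 0.29), that of Fcgrt -0.06 (-0.34 to 0.22) and that of Fcer1g -0.02 (-0.34 to 0.30), and the groups overlapped for all 3. Whether the exercise difference itself differed between LSEC-like and Kupffer-like cells was tested with an interaction term: 0 of 6 members passed, against 0.126% of genes. Fcgr1, Fcgr3 and Fcgr4 entered this test through their Kupffer-like counts. They had 18, 36 and 20 UMIs in LSEC-like cells and SEs of 0.66, 0.47 and 0.63, so the test had little reach for them. The smallest p among the members was that of Fcgrt, whose LSEC-like minus Kupffer-like difference was -0.36 on the log2 scale (SE 0.16, 95% interval -0.68 to -0.04), with an adjusted p of 1 in edgeR. Without sedentary replicate 1 this difference was -0.15 (95% interval -0.52 to 0.23), and without sedentary replicate 2 it was -0.55. In simulated counts this test recovered 26% of 2-fold and 84% of 4-fold differences, so its reach is short. The same assumed spread and the same choice of changed genes apply to these rates. Between B-like and Kupffer-like cells 0 of 6 members passed, against 0.1% of genes. Only 4 of the 6 members passed the low-count filter in B-like cells on their own.

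The 3 smallest p-values included Fcgr4 and Fcgr3 in cDC2-like cells, a class of 194 cells. Fcgr4 stood at 40.9 and 67.9 CPM in the exercise and 20.9 and 28.8 CPM in the sedentary libraries, and Fcgr3 at 114 and 78.7 CPM and 62.8 and 33.0 CPM. The log2 differences were 1.21 (SE 0.46, adjusted p = 0.707) and 0.94 (SE 0.38, adjusted p = 0.771) in edgeR, on 47 and 80 UMIs in all. With 1 library left out, the Fcgr3 difference ran from 0.60 (without sedentary replicate 2) to 1.47 (without sedentary replicate 1). The groups did not overlap for either gene, nor for 34.6% of all genes in this class, of which 0 passed and 202 had an unadjusted p under 0.05. The sum of classical monocyte markers in this class was 1774 and 2049 CPM in the exercise and 1370 and 1718 CPM in the sedentary libraries, also without overlap, and neutrophil markers were 13.6 and 361 CPM against 41.8 and 107 CPM. Plasma cell markers stood at 2625 CPM in sedentary replicate 1 and at most 136 CPM in the other libraries; the part of these transcripts was not tested. Over the 13 classes the groups did not overlap in 18 of the 49 tests (9 higher, 9 lower), against 34.3% of all gene tests.

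**Figure D5:**
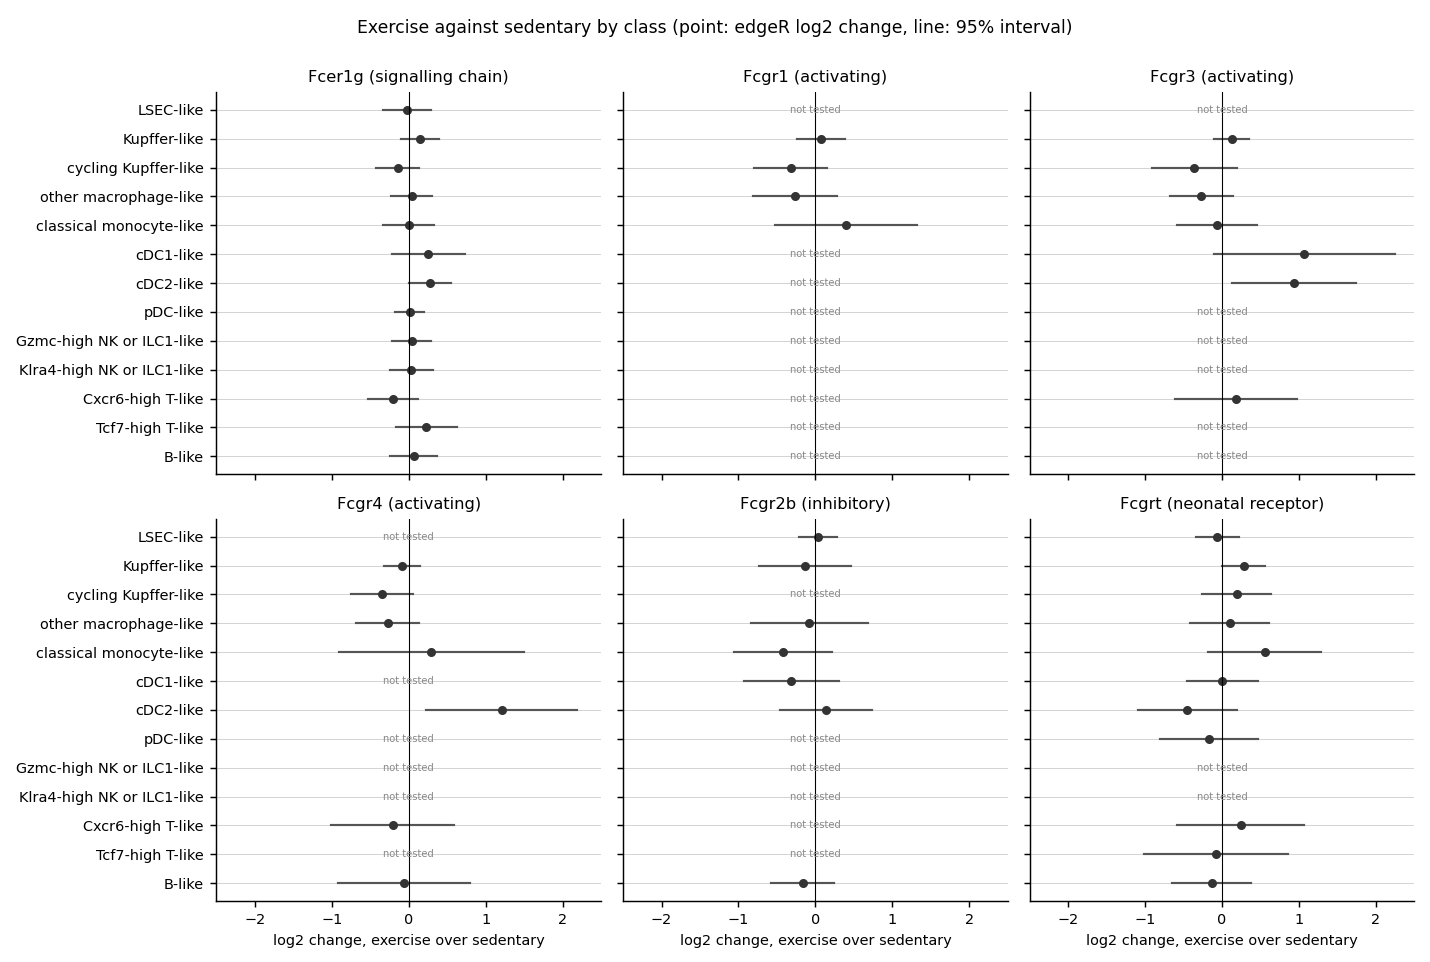
Log2 change of each gene between exercise and sedentary libraries in the 13 tested classes (edgeR; point and 95% interval, 0 for no difference); genes too low to be tested are marked. In Kupffer-like cells the intervals stay within -0.33 and 0.56 for all genes but Fcgr2b, and in cDC2-like cells those of Fcgr3 and Fcgr4 lie above 0, at 0.13 to 1.74 and 0.23 to 2.19. The intervals are not adjusted for the number of tests, and no gene shown passed the adjusted test in any class.

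Genes that work with these receptors were followed as 5 lists in Kupffer-like cells, and 0 genes of any list passed the test. Of 24 genes that carry the activating signal, 23 could be tested, of which 7 had a positive and 16 a negative log2 difference with a median of -0.09, against 0.00 over all genes. The kinase Fyn and the regulatory subunit Pik3r1 had the smallest p among these, with log2 differences of -0.34 and -0.35 and adjusted p of 0.727 and 0.741 (edgeR). Of 11 adaptors and partner receptors, 6 could be tested, 5 positive and 1 negative. Tyrobp, the adaptor most like the FcR gamma chain in function, stood at 3986 and 3914 CPM in the exercise and 3245 and 3441 CPM in the sedentary libraries, with a log2 difference of 0.26 and an adjusted p of 0.790. The 8 genes of the inhibitory route, among them Inpp5d, the phosphatase recruited by Fcgr2b, were 4 positive and 4 negative with a median of 0.01. Of the 7 partners of the neonatal receptor in the endosome, 6 were tested, 3 in each direction, and B2m, its light chain, overlapped between groups.

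The other antibody-binding genes were 12, of which 4 could be tested in Kupffer-like cells (1 positive, 3 negative). Pigr, which carries polymeric IgA and IgM across epithelia, had the largest log2 difference of these, -3.12 with an adjusted p of 0.0948 (edgeR), at 2.34 and 1.05 CPM in the exercise and 21.5 and 7.85 CPM in the sedentary libraries. Its values ran in the order of the hepatocyte marker sums given above. Most other genes of this list, named here for their levels after these were seen, were highest in B-like cells: Fcmr, the receptor for IgM, at 576 ± 74.5 CPM (SD, n = 4), Fcrla at 276 ± 41.9 CPM, Fcer2a, the low-affinity IgE receptor CD23, at 266 ± 19.3 CPM and Fcrl1 at 179 ± 18.3 CPM. Fcrla also stood at 193 ± 28.9 CPM in pDC-like cells. Fcer1a and Ms4a2, which with Fcer1g build the high-affinity IgE receptor of basophils and mast cells, were found in neutrophil-like cells of sedentary replicate 2 alone among the named classes, at 118 and 67.7 CPM. That library held 69 neutrophil-like cells and 13 of the 15 Fcgr2b UMIs of the class. Whether other cell types were among these cells was not tested.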

How the data were processed

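Hepatic CD45+ cells of 4 mouse libraries (2 exercise, 2 sedentary) were measured by droplet RNA sequencing. The authors deposited filtered matrices of raw UMI counts per gene and barcode. Cell Ranger, Seurat 3.1 and mm10 are named in the submitters' processing notes, and the series text speaks of a pre-mRNA reference, under which intronic reads may be counted. Whether strand was used is unknown. The sample protocol names magnetic beads, the series text a sort and nuclei.

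Barcodes needed 500 UMIs, 200 genes and no more than 20% of mitochondrial UMIs, and 460 doublets, called by similarity to simulated doublets, were removed. Cells were clustered (2000 variable genes, 30 components, Leiden resolution 1.0 with leidenalg 0.10.2) without 18 Fc receptor genes and 82 hepatocyte, red cell and mitochondrial genes, with libraries centred. This clustering was chosen out of 4 tried, after their cluster make-up and library balance had been seen and before Fc receptor values were looked at. Clusters were named from marker lists. In cluster 4 of the Kupffer-like class the mean log2 fold over the remaining cells was 1.64 for erythroid and 0.94 for Kupffer markers. There 0 of 6 erythroid markers counted as detected. Detection required a UMI in a set minimum share of the cluster's cells, so this does not mean that erythroid UMIs were absent. The 6 genes, the lists and the markers were chosen with earlier results of these data known.

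Raw counts were summed per library and class. Levels across classes are descriptions without a test. Exercise was tested in the classes where each library had 20 cells or more by edgeR 4.0.16 (quasi-likelihood, TMM, low counts filtered, Benjamini-Hochberg adjustment over all genes tested at 0.05), with DESeq2 1.42.0 as an alternative, and the difference between classes by an interaction term. Named genes were the 6 members, up to 4 genes per list by smallest p in Kupffer-like cells, and for each member the 3 genes with the highest Pearson correlation of mean log2 CPM (prior count 2) over the tested classes, among genes reaching 20 CPM in a class. Inpp5d, B2m and the antibody-binding genes of B-like, pDC-like and neutrophil-like cells fall outside this rule and were named after their values were seen. Statistics were checked on simulated counts, with the same assumed spread for every gene. RefSeq windows of GRCm38.p6 matched all 6 genes. Shares of cells with a UMI were thinned to 1000 UMIs per cell, which left out shallower cells. Alternatives were DESeq2, no low-count filter, each replicate left out, a replicate block, doublets kept, Fc receptor genes kept for clustering, cells with no hepatocyte UMI, resolution 0.5, thinning to 2000 UMIs and no thinning; those added after seeing the data are named in the closing section.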

Additional observations from a re-analysis of the deposited data

Results flagged for a closer look

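For 4 of 36 pairs of a gene and a class, both exercise libraries lay on one side of the sedentary libraries in Kupffer-like cells and on the other side in another class; the difference was not tested for any of them in these classes. Fcer1g had a log2 difference (exercise over sedentary) of -0.14 in cycling Kupffer-like cells and 0.14 in Kupffer-like cells. Fcgr3 had -0.27 in other macrophage-like cells and 0.13 in Kupffer-like cells. In cDC2-like cells Fcgr4 had 1.21 and Fcgrt -0.45, against -0.09 and 0.28 in Kupffer-like cells. None of these 8 differences passed the edgeR test. The share of all genes that lay on opposite sides in this way was not counted. Separation within a class is common with 2 libraries a group, at 34.3% of all gene tests over the 13 classes.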

How the results depend on the processing

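The count of Fc receptor genes that passed the exercise test was 0 under all alternatives run, in Kupffer-like cells, in the other 12 classes and in both interaction tests. Counts over all genes were less steady. In Kupffer-like cells 41 genes passed, against 66 with DESeq2, 223 without a filter on low counts, 164 with the replicate block and 3 in cells with no hepatocyte UMI; leaving out 1 library gave 0 (without exercise replicate 2) to 64 (without sedentary replicate 2). Over the other 12 classes 37 passed, against 24 with DESeq2, 362 without the filter, 375 with the replicate block and 155 to 390 with 1 library left out. The LSEC-like interaction gave 13 and, with 1 library left out, 7 to 20; the B-like interaction gave 10, against 27 without the filter, 36 with the replicate block and 15 to 29 with 1 library left out. Where 1 library is left out, the lone library of its group is assumed to vary like the others. The cause of these shifts was not tested.

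Small log2 differences changed sign. With 1 library left out, Fcgr1 in Kupffer-like cells ran from -0.066 (without sedentary replicate 1; -0.061 without exercise replicate 2) to 0.226, and Fcgr2b in Kupffer-like cells from -0.327 to 0.0749 (without sedentary replicate 2; 0.0128 without exercise replicate 1). In LSEC-like cells Fcgr2b ran from -0.0304 (without sedentary replicate 2) to 0.115, Fcgrt from -0.118 to 0.0069 (without sedentary replicate 1) and Fcer1g from -0.0578 to 0.0231 (without sedentary replicate 2). Fcgr2b in Kupffer-like cells was 0.0011 at resolution 0.5, and Fcer1g in LSEC-like cells was 0.118 with doublets kept. In cells with no hepatocyte UMI the Kupffer-like levels were 3365 CPM for Fcer1g, 295 for Fcgr3 and 12.0 for Fcgr2b. At resolution 0.5 the LSEC-like levels were 2186 CPM for Fcgr2b and 1026 for Fcgrt, and cDC2-like cells merged with monocytes. Fcgr4 in cDC2-like cells could not be fitted without exercise replicate 2, where it fell under the filter. Shares with a UMI moved with depth: at 2000 UMIs and without thinning they were 94.3% and 95.6% for Fcgr2b in LSEC-like, 99.6% and 98.5% for Fcer1g in Kupffer-like and 51.2% and 58.5% for Fcgr4 in Kupffer-like cells. The class in which each gene was highest was the same in all alternative cell sets.

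The labels name no source shared by same-numbered libraries, so the numbers were not treated as pairs. The correlation of the deviations of same-numbered libraries was positive in every tested class, up to 0.175 in Kupffer-like cells, except in classical monocyte-like cells (-0.116), where a crossed pairing called 0 genes. That pairing and a clustering without centred libraries were added after seeing the data.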

Other observations

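Of the clusters left without a name, 2 are given here for their Fc receptor transcripts. The cluster of 677 cells with Kupffer and hepatocyte transcripts had Fcer1g at 5022 CPM, Fcgr4 at 454 CPM, Fcgr3 at 446 CPM, Fcgr1 at 202 CPM, Fcgrt at 363 CPM and Fcgr2b at 9.60 CPM. Fcgr2b made up 0.875% of its Fc gamma receptor UMIs, against 0.996% in Kupffer-like cells. The cluster of 172 cells with stellate and endothelial transcripts had Fcgr2b at 828 CPM and Fcer1g at 1836 CPM, and Fcgr2b made up 67.3% of its Fc gamma receptor UMIs.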
